A study of Mus musculus with 3 samples.

Results

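Tal1, Lyl1, Lmo2 and Ldb1 encode 4 subunits of a transcription factor complex of blood stem cells, and the chromatin of their loci was described here in single long-term haematopoietic stem cells of the mouse. The members were listed by gene name and are 4 of 21670 protein-coding genes with a promoter on chromosomes 1 to 19 and X. The cells came from bone marrow of wild-type female C57BL/6 mice aged 8 weeks. After c-Kit enrichment, LSK CD48− CD150+ CD34− cells were sorted and carried through DOGMA-seq, which reads open chromatin, RNA and antibody tags from one cell. The series holds 1 preparation with 1 ATAC library, so no replicate and no other condition could be compared here, and the number of mice behind it was not given. The RNA counts per gene and the antibody tags were not used here, so accessibility is described without the level of any transcript.

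Tal1 and Lyl1 are related basic helix-loop-helix proteins that bind DNA at E-boxes together with an E protein partner. Lmo2 binds no DNA and bridges such a dimer to Ldb1, which self-associates and can bring distant DNA sites together. In blood stem and progenitor cells the complex often sits beside GATA, RUNX and ETS factors, and the genes of its subunits are known for enhancers that lie outside the gene, in some cases beyond a neighbouring gene.

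ATAC-seq fragments are stretches of DNA released where the transposase could cut on both sides, so their number in a window reads how accessible that window was. Of 3757 barcodes called as cells, 3108 had more than 3000 fragments in peaks and were kept. Kept cells held a median of 11457 fragments, with 3977 in the lowest and 194399 in the highest cell. Doublets, which are droplets with more than 1 cell, were neither marked nor removed. Each locus was the mm10 gene body with 100 kb on either side, cut into bins of 500 bp, and a fragment was counted once, in the bin of its midpoint. A bin was called open when at least 2% of the kept cells, which is 63 cells, had a fragment in it. A promoter bin lay within 250 bp of an annotated start of a protein-coding transcript, and bins in promoters or bodies of neighbouring genes were kept apart from those of the member. Shares of cells carry exact Clopper-Pearson 95% intervals and counts exact Poisson intervals, both given as ranges in parentheses, and these cover counting error only.

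The label of the cells was compared with promoters of marker genes. For each gene the promoter bin with the most fragments was taken. Of 8 stem cell markers, 7 had an open promoter bin, with 3812 fragments in all, and Hlf had the highest share at 33.3% of cells. Over all protein-coding genes 61.7% had an open promoter bin. Slamf1, which encodes CD150, passed narrowly with 67 cells or 2.16% (1.67 to 2.73). Ly6a, a defining surface marker of the sort, was under the threshold at 0.676%. All 4 megakaryocyte markers were open, with 2084 fragments in all and Itga2b highest at 20.2%. None of the T cell or granulocyte and monocyte markers was open, with 28 and 91 fragments over 4 genes each. Among B cell markers only Pax5 was open, at 16.0% and within a summed 599 fragments, and among erythroid markers only Epor, at 10.6% and within a summed 447. Of the endothelial and stromal markers 2 of 4 were open, with 347 fragments in all and Pecam1 highest at 5.66%. The part of megakaryocyte-marker promoters in the results was not tested, and an open promoter does not show that its gene was transcribed.

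All 4 members had an open promoter, beside the 61.7% of protein-coding genes. The loci held 31 open bins for Tal1, 80 for Lyl1, 36 for Lmo2 and 31 for Ldb1, which is 7.18%, 19.6%, 8.02% and 7.24% of their bins, against 1.49% of all bins of the genome. The counts and the order of the lower 3 loci depend on the threshold, and at 5% of cells 18 bins were open for Tal1, 44 for Lyl1, 16 for Lmo2 and 21 for Ldb1, while at 1% Lmo2 had 77. Each locus was above the genome-wide share, of which it is itself a small piece. A locus drawn around a gene includes the promoter bins of that gene, and their part in this difference was not tested. Genome-wide, 38.1% of promoter bins and 0.993% of the bins outside promoters were open. Outside promoters, 20 bins were open within 100 kb of Tal1, 64 of Lyl1, 30 of Lmo2 and 16 of Ldb1, where the median gene had 7. The count for Lyl1 exceeded that of 99.7% of genes, that for Lmo2 93.9%, that for Tal1 83.2% and that for Ldb1 75.7%. Neighbouring genes share such bins, so these places in the order of genes are not places of the member alone.

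**Figure D1:**
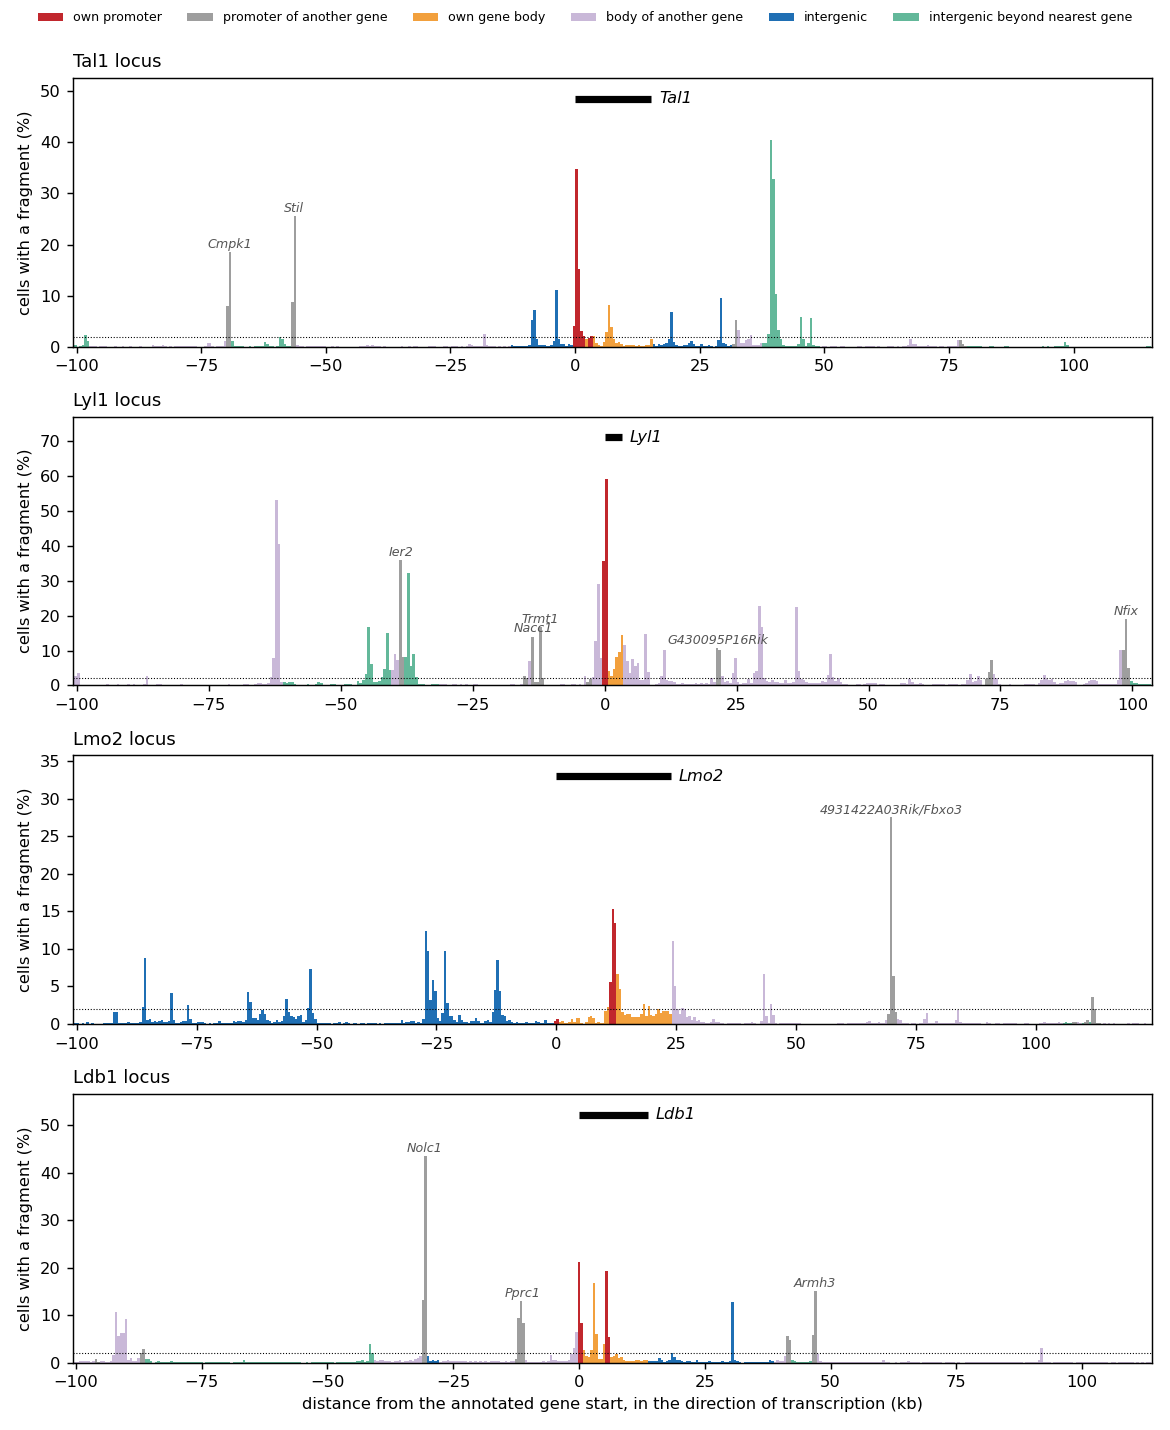
Share of cells with a fragment in each 500-bp bin across the Tal1, Lyl1, Lmo2 and Ldb1 loci, plotted against the distance in kb from the annotated gene start in the direction of transcription, with colours for the bin class, the gene as a black bar and the dotted line at 2% of cells. The tallest bin outside promoters stood at 39.3 kb for Tal1, at −62.2 kb for Lyl1, at −27.2 kb for Lmo2 and at 3.0 kb for Ldb1.

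The promoters of the members were ordered by the share of cells with a fragment in the strongest promoter bin. For Lyl1 this was 59.3% of cells (57.5 to 61.0), for Tal1 34.9% (33.2 to 36.6), for Ldb1 21.1% (19.7 to 22.6) and for Lmo2 15.3% (14.1 to 16.7). No interval of one member overlapped that of the next, and the order was the same under each processing alternative tried for this share. By fragments in that bin, Lyl1 had 2965 (2859 to 3074), Tal1 1490 (1415 to 1568), Ldb1 836 (780.3 to 894.6) and Lmo2 571 (525.1 to 619.8), where the median protein-coding gene had 190. The bin of Lyl1 exceeded that of 98.7% of genes, Tal1 90.0%, Ldb1 77.8% and Lmo2 69.3%. By this bin Lyl1 and Tal1 were both above Ldb1 and Lmo2, but other stretches of the promoter gave other orders. Over the whole run of adjoining open promoter bins, Lyl1 stood at 71.6%, Tal1 at 47.2%, Lmo2 at 29.6% and Ldb1 at most at 26.6%. These runs differed in length, with 1000 bp at Lyl1 and Ldb1, 1500 bp at Lmo2 and 2500 bp at Tal1. Within 250 bp of a start, the highest shares were 59.9% for Lyl1, 21.1% for Ldb1, 15.1% for Lmo2 and 14.0% for Tal1. In both of these orders, the intervals of the lowest and next lowest member overlapped. The share in the strongest bin depends on depth, and thinned to 5000 fragments per cell it was 33.6% for Lyl1 and 7.34% for Lmo2.

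The other genes of the complex were read the same way from a list of 12 partners. Of these, 11 had an open promoter, beside 61.7% of all protein-coding genes, with a median share of 21.0% of cells, beside 28.0% over the 4 members. The E protein gene Tcf3 stood at 49.7% and Tcf12 at 24.9%, while Ssbp2, whose product stabilises Ldb1, was the highest partner at 56.4%. Among factors that join the complex, Runx1 stood at 28.0%, Cbfa2t3 at 22.9%, Gata2 at 19.1%, Erg at 8.27% and Fli1 at 7.56%. Gata1, the GATA factor of red cells and platelets, was the only partner under the threshold, with a fragment in 27 cells or 0.869% (0.573 to 1.26). Of 7 paralogs of the members, 4 had an open promoter, a proportion near the 61.7% of all protein-coding genes. Their median share was 2.12% of cells over the 7, and none exceeded the share of its own member except Lmo4 at 15.6% (14.3 to 16.9), which was not distinguishable from Lmo2. Of the relatives of Tal1, Tal2 passed the threshold narrowly with 66 cells or 2.12% (1.65 to 2.69), while Nhlh2 at 0.483% and Nhlh1 at 0.354% were under it. Lmo1 stood at 4.99%, Lmo3 at 0.965% and Ldb2 at 4.6%.

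**Figure D2:**
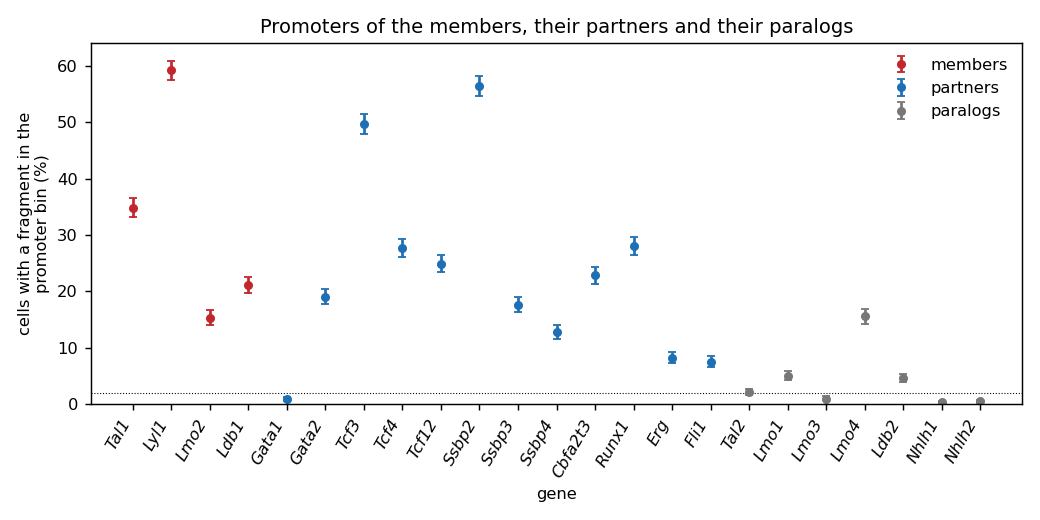
Share of cells with a fragment in the strongest promoter bin of the members, of their partners and of their paralogs, in percent, with exact 95% binomial intervals as error bars and the dotted line at 2% of cells. Lyl1 is the highest member at 59.3% and Lmo2 the lowest at 15.3%, and Gata1 is the only partner below the line, at 0.869%.

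Tal1 (ENSMUSG00000028717.12) lies at chr4:115056426-115071755 on the plus strand, 13.2 kb from Stil on its upstream side and 17.0 kb from Pdzk1ip1 on its downstream side. Its locus held 14285 fragments in 432 bins, and 79.7% of them fell in open bins. The main promoter element, a run of adjoining open promoter bins at chr4:115056001-115058500, held 2354 fragments in 47.2% of cells (45.4 to 48.9), more than 89.3% of open promoter elements of the genome. The summit of this element, the base with the most cut sites around it, lay just inside the gene in an intron. The window of 250 bp on either side of the first annotated start had a fragment in 14.0% of cells (12.8 to 15.3), that of the next start in 7.63%, and those of the last 2 starts in 2.83% and 1.51%.

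The largest element of the Tal1 locus was not the promoter. It lay at chr4:115095001-115097500, in intergenic DNA between Pdzk1ip1 and Cyp4x1, with its summit 39.5 kb downstream of the gene start. This element held 3789 fragments (3669 to 3912) in 1883 cells or 60.6% (58.8 to 62.3), more than 99.8% of open elements outside promoters. Intergenic bins beyond Pdzk1ip1 held 31.8% of all fragments of the locus, while the own promoter held 17.4% and promoters of other genes 17.5%. Because the element lies past a neighbouring gene, which gene it serves was not tested, and it is kept apart from the DNA directly beside Tal1. The promoter of Pdzk1ip1, the gene between, had 185 fragments in 5.28% of cells (4.52 to 6.12).

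The third largest element of the locus outside promoters of other genes was in a coding exon of Tal1, 6.9 kb from the start, with 519 fragments in 13.6% of cells. Its window had 76.0% G and C. Between Stil and Tal1, elements at −8.4 kb and −3.7 kb were seen in 11.9% and 11.2% of cells. Between Tal1 and Pdzk1ip1, elements at 29.3 kb and 19.3 kb were seen in 9.52% and 6.85%. These 4 flanking elements, picked out after their values were seen, were each far below the distant element at 39.5 kb. Stil and Cmpk1, the upstream neighbours, had promoter elements in 30.8% and 24.4% of cells.

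The sequences of the Tal1 promoter and of the distant element are shown because they belong to the 2 largest elements of the locus and because both held GATA letters. They are read from the mouse genome GRCm38.p6 of RefSeq, 5′ to 3′ on the plus strand, with capitals for GATA, for the E-box letters CAGNTG and for the ETS letters AGGAAG on either strand. The promoter sequence is that of chr4:115056176-115056425, directly before the first start, the intron sequence is that of chr4:115056563-115056862 around the promoter summit, and the distal one is that of chr4:115095806-115096105 around the summit at 39.5 kb.
Tal1 promoter: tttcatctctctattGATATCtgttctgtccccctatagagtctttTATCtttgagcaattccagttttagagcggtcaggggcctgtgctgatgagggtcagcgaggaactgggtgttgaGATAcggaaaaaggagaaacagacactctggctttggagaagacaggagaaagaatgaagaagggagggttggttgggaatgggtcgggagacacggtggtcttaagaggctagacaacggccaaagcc
Tal1 intron summit: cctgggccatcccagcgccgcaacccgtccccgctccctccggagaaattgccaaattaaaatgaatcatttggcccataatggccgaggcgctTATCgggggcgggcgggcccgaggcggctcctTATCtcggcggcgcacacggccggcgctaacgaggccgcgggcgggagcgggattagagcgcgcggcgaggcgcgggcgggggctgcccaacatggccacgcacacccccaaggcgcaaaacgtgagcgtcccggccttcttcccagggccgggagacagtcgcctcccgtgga
Tal1 distal element: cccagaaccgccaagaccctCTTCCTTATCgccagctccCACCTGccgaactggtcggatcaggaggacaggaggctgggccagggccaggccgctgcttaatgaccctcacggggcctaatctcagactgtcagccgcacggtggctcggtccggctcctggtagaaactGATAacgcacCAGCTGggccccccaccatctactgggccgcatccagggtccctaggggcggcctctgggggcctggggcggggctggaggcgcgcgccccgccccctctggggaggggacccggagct
The promoter sequence lies in a bin at the edge of its element, with 141 fragments in 4.15% of cells, while the intron window lies in the bin with 1490 fragments. The promoter sequence held 4 matches to GATA, of which 2 overlap in GATATC as one match on each strand, and 48.5% of RefSeq promoters of that length held at least one. It also held 1 match to CTG and GATA at a spacing of 8 or 9 bases, which 3.34% of RefSeq promoters held. The intron window held 2 matches, and 34.3% of windows around open promoter summits held at least one. The distal window held 2 GATA matches, 2 of CAGNTG and 1 of AGGAAG that directly adjoins a GATA match. It also held the composite CANNTGNNNNNNNNNGATA, an E-box followed by GATA as the complex can bind it, and CTGNNNNNNNNNGATA, its shorter form. Each composite contains letters already counted as a GATA match, and with 1 more spacing allowed for either of them, 1.43% and 6.93% of the windows around open elements outside promoters held them. A match describes letters and is no evidence of binding.

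Lyl1 (ENSMUSG00000034041.4) spans 3259 bp at chr8:84701457-84704715 on the plus strand and lies within the annotated span of Nfix, a nuclear factor I gene. It has 1 annotated start. Its locus had the most fragments of the 4, with 36079 in 408 bins or 88.4 per bin, beside 33.1 for Tal1, 31.7 for Ldb1 and 27.7 for Lmo2 and a genome-wide mean of 7.22. Of the 3108 cells, 3104 had a fragment somewhere in it. The locus had no intergenic bin between Lyl1 and its nearest neighbours, so every bin outside the gene belonged to another gene or lay beyond one. Bodies of other genes held 53.8% of its fragments, promoters of other genes 15.9%, the own promoter 12.5% and the own body 4.19%. The bodies of other genes covered 318 of the 408 bins, with 61.1 fragments per bin.

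The Lyl1 promoter element at chr8:84701001-84702000 was seen in 71.6% of cells (70.0 to 73.2), with 4524 fragments, more than 98.6% of open promoter elements. Open bins of other classes adjoin this promoter element on both sides, so its length of 1000 bp is set by the classes. An element with a similar number of fragments, but over 2000 bp, lay at chr8:84638001-84640000. Its summit was at −62.0 kb, and its 4626 fragments were seen in 72.2% of cells (70.6 to 73.7). That element covers part of the last coding exon of Cacna1a, a calcium channel gene, and its window of 300 bp had 82.7% G and C and 56 CpG, where the median window outside promoters had 51.7% and 6. It exceeded 99.9% of open elements outside annotated promoters, and which gene it serves was not tested. The largest element outside bodies and promoters of protein-coding genes stood at −37.3 kb, beside the promoter of Ier2 and over an annotated start of the noncoding gene Gm26664, with 2195 fragments in 45.2% of cells (43.5 to 47.0).

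Elements also flanked Lyl1 within Nfix, and these were chosen for mention after their values were seen. One at −1.4 kb, over a noncoding exon of Nfix, was seen in 41.8% of cells, and the body of Lyl1 itself in 34.9%. Another at 29.5 kb, in an intron of Nfix, was seen in 39.6% of cells (37.9 to 41.4) with 1793 fragments. Its window held 3 GATA matches, 1 of CAGNTG and 2 of the shorter composite CTG and GATA at a spacing of 8 or 9 bases. The sequence before the start of Lyl1, chr8:84701207-84701456, held no GATA and 1 CAGNTG match, which 41.9% of RefSeq promoters also held at least once. The window around the promoter summit, past the start, held 2 GATA matches and 1 of the shorter composite, which 2.28% of windows around open promoter summits held. Both printed sequences are on the plus strand of GRCm38.p6, with capitals as before. They show the sequence before the start of Lyl1, the member with the highest promoter share, beside the GATA-rich intron window, chr8:84730827-84731126. The sequence before the start lies in the promoter element but outside its strongest bin.
Lyl1 promoter: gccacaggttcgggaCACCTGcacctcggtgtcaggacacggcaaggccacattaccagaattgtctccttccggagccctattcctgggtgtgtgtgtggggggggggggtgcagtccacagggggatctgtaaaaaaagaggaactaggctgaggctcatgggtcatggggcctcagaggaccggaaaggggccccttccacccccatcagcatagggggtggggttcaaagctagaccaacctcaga
Nfix intron element: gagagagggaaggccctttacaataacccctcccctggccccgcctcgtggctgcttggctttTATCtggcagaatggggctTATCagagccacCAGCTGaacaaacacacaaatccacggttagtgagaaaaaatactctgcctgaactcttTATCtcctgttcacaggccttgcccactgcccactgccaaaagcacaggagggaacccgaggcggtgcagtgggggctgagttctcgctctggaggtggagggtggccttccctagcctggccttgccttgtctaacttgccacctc

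Lmo2 (ENSMUSG00000032698.15), the bridging subunit, lies at chr2:103957986-103981878 on the plus strand and is overlapped by the long annotated span of 4931422A03Rik. Its nearest protein-coding neighbour upstream is Caprin1 at 160.3 kb, so all upstream bins of the window lay directly beside it. The first annotated starts, one of them of the principal transcript Lmo2-208, were closed by the threshold used, with a fragment within 250 bp in 13 cells or 0.418% (0.223 to 0.714). The accessible starts lay about 11.6 kb further in, at an element chr2:103969001-103970500 that was seen in 29.6% of cells (28.0 to 31.3). The start at 103969528 had a fragment within 250 bp in 15.1% of cells (13.8 to 16.4) and those from 103970129 to 103970244 in 12.3% to 13.5%. As these windows overlap, the shares cannot be added.

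Upstream intergenic DNA held 45.5% (44.6 to 46.4) of the fragments at Lmo2, the largest class of that locus, while the own promoter held 10.3%, the own body 14.0%, bodies of other genes 16.7% and promoters of other genes 13.2%. The 200 upstream bins held 28.3 fragments each on average, beside 27.7 over all 449 bins of the locus. Of the upstream bins, 19 were open and formed 9 elements from −85.8 to −12.0 kb, with 3615 of the 5668 upstream fragments. The largest, at chr2:103930501-103933000 with a summit at −27.0 kb, had 1282 fragments (1213 to 1354) in 29.4% of cells (27.8 to 31.0), close to the promoter element in both values. Its length was 2500 bp, beside 1500 bp of the promoter element, and its strongest bin held 460 fragments, beside 571. It exceeded 97.6% of open elements outside promoters, whereas the promoter element with 1252 fragments exceeded 70.6% of promoter elements. The promoter element shared by 4931422A03Rik and Fbxo3 had a like count over 1000 bp, with 1312 fragments in 31.3% of cells (29.7 to 33.0). Outside promoters, the next largest element lay past the gene in an intron of 4931422A03Rik, at 24.4 kb, in 16.2% of cells (14.9 to 17.6). The remaining 8 upstream elements were each seen in at most 15.3% of cells, and the highest of them, at −12.0 kb, is named after its value was seen. Of the 9 upstream elements, 7 held GATA, 7 AGGAAG and 4 CAGNTG in the window around the summit, where 58.9%, 45.6% and 57.2% of windows around open elements outside promoters of the genome held these letters.

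Ldb1 (ENSMUSG00000025223.15), the subunit that self-associates, lies at chr19:46031570-46045214 on the minus strand, and an annotated transcript of Pprc1 overlaps its first exon. It had 2 open promoters. The outer one, chr19:46044501-46045500, was seen in 26.6% of cells (25.0 to 28.2) with 1116 fragments, and the inner one, chr19:46039001-46040000 with its summit 5.5 kb into the gene, in 22.9% (21.4 to 24.4) with 942. By windows of 250 bp on either side of a start, the highest values were 21.1% of cells (19.7 to 22.6) at the outer and 20.7% (19.2 to 22.1) at the inner promoter, which did not differ beyond counting error. The outer promoter had 52.2% and the inner one 67.3% of its fragments below nucleosome length, where open promoter bins of the genome had 59.8%.

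The largest element outside promoters in the window lay far from Ldb1, in the Elovl3 gene at −90.2 kb, with 1301 fragments in 30.8% of cells (29.2 to 32.4). Within the body of Ldb1 the largest lay between both promoters, in an intron at chr19:46041501-46043000 with its summit at 3.1 kb, and had 924 fragments in 22.1% of cells (20.7 to 23.6). The intron element exceeded 95.7% of open elements outside promoters and held the strongest single bin outside promoters. Downstream of the gene, before Hps6, an element at 30.5 kb was seen in 12.7% of cells. The elements in the intron and at 30.5 kb were chosen for description after their values were seen. Promoters of other genes held 36.0% of the fragments of this locus, the highest such share among the 4, with Nolc1 seen in 49.9% of cells, Pprc1 in 24.8%, Armh3 in 18.9% and Hps6 in 9.27%. The own promoters held 15.2%, the own body 12.1% and upstream DNA before the nearest neighbour 0.751%, the last over 5 of 428 bins. An open element at −0.3 kb, with 324 fragments in 8.91% of cells, was counted with the body of Pprc1.

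The promoter sequences of Ldb1 are shown on its own strand, the minus strand, to set the 2 promoters side by side, at chr19:46045312-46045561 and chr19:46039622-46039871. The intron window chr19:46041968-46042267 is on the plus strand. Of the 4 members 3, all but Lmo2, matched the RefSeq promoter table, with 6 promoters.
Ldb1 outer promoter: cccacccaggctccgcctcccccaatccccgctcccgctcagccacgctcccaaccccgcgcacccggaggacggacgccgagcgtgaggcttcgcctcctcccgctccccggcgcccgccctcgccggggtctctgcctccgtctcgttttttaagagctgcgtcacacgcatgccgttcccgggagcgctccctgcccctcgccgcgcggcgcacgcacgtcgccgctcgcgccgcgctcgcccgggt
Ldb1 inner promoter: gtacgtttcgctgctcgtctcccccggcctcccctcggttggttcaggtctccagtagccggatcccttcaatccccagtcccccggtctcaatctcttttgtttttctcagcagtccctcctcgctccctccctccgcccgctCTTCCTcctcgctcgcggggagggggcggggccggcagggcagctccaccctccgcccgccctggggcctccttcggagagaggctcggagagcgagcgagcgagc
Ldb1 intron element: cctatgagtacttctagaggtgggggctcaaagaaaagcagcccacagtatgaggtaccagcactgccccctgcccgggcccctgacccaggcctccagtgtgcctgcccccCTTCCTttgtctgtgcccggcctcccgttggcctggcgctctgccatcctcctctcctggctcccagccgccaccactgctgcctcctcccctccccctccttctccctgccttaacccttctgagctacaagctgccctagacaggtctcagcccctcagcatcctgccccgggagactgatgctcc
The outer sequence had 76.0% G and C and 40 CpG, and the inner one 68.4% and 22, where the median RefSeq promoter had 56.0% and 10. The printed Tal1 promoter was below that median with 48.8% and 6 CpG, while the other RefSeq promoter of Tal1, chr4:115057561-115057810, was above it with 62.8% and 16 CpG and held no GATA. The Lyl1 promoter had 5 CpG. Neither GATA nor CAGNTG was found in the printed Ldb1 sequences. The remaining RefSeq promoter of Ldb1, chr19:46037071-46037320, held 4 GATA matches and 1 of CAGNTG, and the bin over it, with a fragment in 32 cells or 1.03%, was not open. AGGAAG was found once in the printed inner promoter and once in the intron window, and the windows around the promoter summits held it 3 times at the outer and 2 times at the inner promoter. Of the backgrounds, 28.8% of RefSeq promoters, 31.7% of windows around open promoter summits and 45.6% of windows outside promoters held it. The absence of letters from a window says nothing of the factor.

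Promoters were then set against the strongest bin outside every protein-coding promoter of the locus. At Tal1 this bin held 1847 fragments, 1.24 times the promoter bin (1.16 to 1.33), and at Ldb1 617, or 0.738 times (0.664 to 0.82). These 2 members kept their side of 1 under each alternative tried, though the size at Tal1 depended on the bins, with 2.21 (2.06 to 2.37) when they were moved by 250 bp and 1.78 (1.67 to 1.9) in summit windows. At Lyl1 the ratio was 0.864 (0.819 to 0.911), and 0.443 (0.415 to 0.473) when bodies of other genes were left out, from a bin in the same element as the start of Gm26664 but not over that start. At Lmo2 it was 0.806 (0.711 to 0.912). For Lyl1 and Lmo2 the side of 1 depended on where the bins began, since with bins moved by 250 bp the ratios were 1.04 (0.99 to 1.09) and 1.31 (1.17 to 1.46), and in windows centred on the summits, added after the data were seen, 1.12 (1.07 to 1.17) and 1.22 (1.09 to 1.36). The strongest of many distal bins is compared with the strongest of a few promoter bins, which favours the distal side. The intervals of these ratios take fragments as independent. Some cells gave several fragments to a bin, and both bins were read in the same cells, so the intervals may be too narrow. Across genes, the strongest distal bin within 100 kb held a median of 312 fragments, and that of Lyl1 exceeded 98.7% of genes, Tal1 97.2%, Ldb1 74.8% and Lmo2 64.4%.

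**Figure D3:**
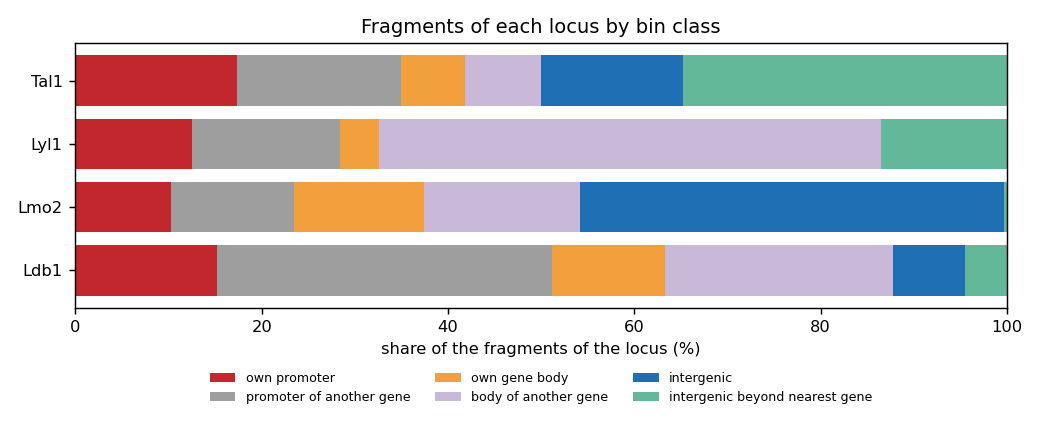
Share of the fragments of each locus by bin class, in percent, with 1 bar for each of the Tal1, Lyl1, Lmo2 and Ldb1 loci. Upstream and downstream intergenic DNA share 1 colour. At Tal1, intergenic DNA beyond the nearest gene held 31.8% downstream and 2.98% upstream, drawn as 1 segment. Bodies of other genes held 53.8% at Lyl1, upstream intergenic DNA 45.5% at Lmo2 and promoters of other genes 36.0% at Ldb1.

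The loci thus differed in where the fragments lay, and each had another largest class. At Tal1 it was intergenic DNA beyond the downstream neighbour, at Lyl1 the bodies of other genes, at Lmo2 upstream intergenic DNA and at Ldb1 promoters of other genes. These classes cover unlike numbers of bins, so a large share is not a high density. At Lmo2 the class covered 200 of 449 bins, with 28.3 fragments per bin beside 27.7 for the locus. At Lyl1 it covered 318 of 408 bins, with 61.1 per bin beside 88.4. At Tal1 it covered 98 of 432 bins, with 46.4 per bin beside 33.1, and at Ldb1 14 of 428, with 349 beside 31.7. The own promoter held between 10.3% and 17.4% of a locus. The shares rest on the chosen flank, and with 50 kb on either side promoters of other genes at Tal1 held 1.85% in place of 17.5%, bodies of other genes at Ldb1 12.7% in place of 24.5%, upstream DNA at Lmo2 34.3% and bodies of other genes at Lyl1 44.4%. Fragments below nucleosome length made up 53.1% at Tal1, 52.8% at Lyl1, 49.0% at Ldb1 and 43.9% at Lmo2, against 45.6% of all fragments. Genome-wide, they made up 59.8% in open promoter bins and 54.6% in open bins outside promoters. Barcodes not called as cells gave between 5.57% and 5.9% of the fragments in the loci, against 8.41% of all. In open promoter bins and open bins outside promoters of the genome they gave 4.79% and 5.2%.

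Motif letters were counted in windows of 300 bp around the summits of all 65 open elements outside promoters at the 4 loci. GATA was present in 32 of them or 49.2%, beside 58.9% of 35615 such windows of the genome. The E-box CAGNTG was present in 31 or 47.7%, beside 57.2%, and AGGAAG in 31 or 47.7%, beside 45.6%. The RUNX letters TGTGGT were present in 14 or 21.5%, beside 26.4%. The loci differed among themselves, with GATA in 9 of 13 elements at Tal1, 13 of 17 at Lmo2, 4 of 9 at Ldb1 and 6 of 26 at Lyl1. The Lyl1 windows were also richer in G and C, with a median of 58.85% against 52.7% at Tal1, 52.0% at Lmo2 and 52.3% at Ldb1, and the part of base composition in these counts was not tested.

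The composites were rarer. The shorter one, CTGNNNNNNNNGATA or CTGNNNNNNNNNGATA, was in 4 of the 65 windows or 6.15%, beside 6.93% genome-wide. These were the Tal1 windows at 39.5 kb and 3.7 kb, the Lyl1-locus window at 29.5 kb and the Ldb1-locus window at 91.8 kb. The full one, CANNTGNNNNNNNNNGATA or CANNTGNNNNNNNNNNGATA, was in 3 or 4.62%, beside 1.43% genome-wide, namely at 39.5 kb in the Tal1, −27.0 kb in the Lmo2 and −41.3 kb in the Ldb1 locus. These windows were looked up after the counts were seen. The windows at Tal1 and Lmo2 were those of the largest element outside promoters at each locus. The Ldb1-locus window with the full composite was that of an element with 131 fragments. The largest elements outside promoters at Lyl1, with 4626 fragments, and at Ldb1, with 1301, held neither composite.

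Within single cells the promoter bins were mostly covered by 1 fragment. Of the cells with a fragment in the Tal1 promoter bin, 766 had 1, 244 had 2 and 74 had more, up to 4. For Lmo2 the counts were 392, 76 and 9, and for Ldb1 515, 106 and 35. For Lyl1 they were 1077, 515 and 251, so 13.6% of the cells with a fragment had more than 2, and the highest cell had 13. Fragments were not assigned to alleles, so these counts are not counts of alleles.

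The members were also read together in each cell. In 611 cells or 19.7% none of the 4 promoter bins had a fragment, in 1269 or 40.8% there was 1 member, in 926 or 29.8% there were 2, in 269 or 8.66% there were 3, and in 33 or 1.06% all 4. Median depth rose along the same line, from 10054 fragments in cells with none to 14058 in cells with all 4. A cell with no fragment at a promoter is not shown to have a closed one.

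Promoter and strongest distal bin of a locus were compared within cells in the same way. At Tal1 the distal bin had a fragment in 44.8% (41.8 to 47.9) of cells with a promoter fragment and in 38.1% (36.0 to 40.2) of those without, with median depths of 12129.5 and 11030.5. Within 3 equal groups of cells by depth the shares were 34.8% and 32.7%, 42.2% and 37.7%, and 52.4% and 45.8%, and the intervals overlapped in each group. At Ldb1 the shares were 19.2% (16.3 to 22.4) and 16.0% (14.6 to 17.5), at Lyl1 54.0% (51.7 to 56.3) and 51.6% (48.8 to 54.4), and at Lmo2 12.4% and 12.4%. Within depth groups the order at Lyl1 changed, with 42.7% and 45.1% in the shallowest, 52.4% and 58.1% in the middle and 64.4% and 53.9% in the deepest group. At Ldb1 and Lmo2 the intervals overlapped in each depth group, and at Lyl1 in all but the deepest. The differences between cells with and without a promoter fragment were not tested beyond these intervals.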

How the data were processed

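ATAC, RNA and antibody tags were measured in 1 preparation of LT-HSCs. With Cell Ranger ARC and the mm10 reference the authors mapped reads, collapsed duplicates and called cells, and they deposited counts of fragments per barcode, the coordinates of each unique fragment and its number of read pairs, none of them normalized. Fragments of called cells with more than 3000 fragments in peaks were used, 3108 cells in all. The paper's other limits on cells were not applied. The members and gene lists were chosen with earlier results of these data known.

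Genes and starts came from GENCODE vM21 and sequence from RefSeq GRCm38.p6. Adjoining open bins of 1 class were joined to elements, so the fragments and cells of an element also depend on its length. Classes were given in the order own promoter, other promoter, own body, other body and intergenic, with intergenic bins beyond the nearest protein-coding gene set apart. Summits were smoothed over 75 bp on either side. Named genes were the members, neighbours with an open promoter and the listed partners and paralogs, and elements to be described were the 3 largest per locus outside promoters of other genes, to which others were added after their values were seen. Doublets were not removed. The interval of a ratio came from the exact binomial interval of one count in the sum of both. With 1 library no test between samples was possible. Python 3.11.15, numpy 2.4.6, scipy 1.17.1, pandas 2.3.3 and matplotlib 3.10.9 were used, and the counting was tested on simulated data.

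Alternatives were all called cells, counting a fragment in every bin it overlaps, bins moved by 250 bp, fragments below 147 bp, fragments with at least 2 read pairs, open thresholds of 1% and 5%, a flank of 50 kb and thinning to 5000 fragments per cell. Leaving out the 1% of cells with the most fragments and windows centred on summits were added after seeing the data. The antibody tags were left out because they do not read these loci.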

Additional observations from a re-analysis of the deposited data

How the results depend on the processing

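Values are given in the order Tal1, Lyl1, Lmo2 and Ldb1 unless named. The causes of the changes were not tested, apart from those built into an alternative, such as fewer fragments or another threshold.

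The number of open bins was 53, 127, 77 and 48 at a threshold of 1% of cells. At 5% it was 18, 44 and 16 for the first 3 members, and with fragments below nucleosome length alone 18, 41 and 17, while Ldb1 stayed within 1.5 times its main count in both. Counting a fragment in every bin it overlaps gave 62 for Lmo2. All called cells, moved bins, at least 2 read pairs and a flank of 50 kb kept all 4 counts within that range.

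The ratio of the strongest distal to the promoter bin was 2.21, 1.04, 1.31 and 0.848 with bins moved by 250 bp. In windows centred on the summits, chosen after seeing the data, it was 1.78, 1.12, 1.22 and 0.864. The main values of Lyl1 and Lmo2 were under 1, so their direction was reversed in the summit windows, for Lmo2 also with moved bins, while the interval for Lyl1 with moved bins included 1. With short fragments alone the ratio was 1.65, 0.811 and 1.07 for the first 3 members. For Lyl1 it was 0.964 when a fragment counted in every bin it overlaps, and 0.443 with a flank of 50 kb, which leaves out the element in Cacna1a. In moved bins, in summit windows and with short fragments the strongest Ldb1 promoter was the inner one.

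The share of cells with a promoter fragment was 30.2%, 51.5%, 13.3% and 18.2% in all called cells, 38.5%, 64.7%, 19.9% and 23.8% with overlap counting, 21.8%, 49.1%, 9.52% and 14.7% with short fragments and 30.8%, 52.7%, 12.5% and 18.4% with at least 2 read pairs. Thinned to 5000 fragments per cell, which 95 cells did not reach, it was 17.7%, 33.6%, 7.34% and 10.3%. Moved bins gave 29.0% for Tal1 and 64.0% for Lyl1, and summit windows 63.1% for Lyl1. Lyl1, Tal1, Ldb1 and Lmo2 kept this order in each of these settings.

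Without the 1% of cells with the most fragments, chosen after seeing the data, 3076 cells remained and all values of these results stayed within their intervals or counts. Of 196 values of class shares under the alternatives, for classes with bins in the locus, 114 stayed within their interval and 82 moved, the furthest being promoters of other genes at Tal1, from 17.5% to 1.85% with a flank of 50 kb. Depth limits the shares of cells, and at this depth a cell without a fragment cannot be told from a closed site. With 1 library, variation between mice or preparations is unknown.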
